A study of Homo sapiens with 5 samples.

Results

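Feedback targets and nuclear effectors of Wnt/beta-catenin signaling were followed through the differentiation of human pluripotent stem cells into GnRH neurons. The 10 genes, chosen by gene symbol, are AXIN2, LEF1, TCF7, TCF7L1, TCF7L2, SP5, NKD1, LGR5, RNF43 and ZNRF3. Each of these 10 symbols was found once among the 37407 genes listed over the series. All 10 are called feedback genes below for short, though the set also holds nuclear effectors such as TCF7L1 and TCF7L2. The cells were wild-type WA09, a human embryonic stem cell line, and were profiled by droplet single-cell RNA sequencing of transcript 3′ ends. D0 held undifferentiated cells. D5_dSMADi and D10_dSMADi held cells at day 5 and day 10 of dual SMAD inhibition (dSMADi) with dorsomorphin and SB431542. D5_XAV939 and D10_XAV939 held cells given the same 2 inhibitors together with 10 µM XAV939 from the start. D22, D24 and D26 held cells that had passed through dSMADi without XAV939, then FGF8, and then the Notch inhibitor DAPT. Each of the 8 conditions was 1 culture of 1 line. The 5 conditions of D0, D5 and D10 were tagged and pooled before sequencing, and the counts of each condition are called its library below. There is thus no replicate, no difference was tested, and the intervals below cover counting error within a library.

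In the canonical Wnt pathway, beta-catenin is held at a low level by a destruction complex that is built on the scaffold AXIN. Wnt ligands stop this complex, and beta-catenin then enters the nucleus and binds the TCF/LEF factors, which turn on a set of genes that includes several inhibitors of the pathway itself. XAV939 inhibits the tankyrases TNKS and TNKS2, enzymes that mark AXIN for degradation, so that the drug stabilizes AXIN and lowers beta-catenin. Transcripts such as AXIN2 are therefore widely read as a gauge of the pathway, and Wnt signaling in the early neural plate is known for setting posterior and dorsal identity. The comparison of XAV939 with no XAV939 at D5 and D10 asks how this gauge stood in these cultures.

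The TCF/LEF factors recognize a short DNA element, and 4 of its spellings were searched on both strands in the 250 bases before the transcription starts that RefSeq gives on GRCh38.p14. The spellings with A as the sixth letter were CTTTGAA in one case and CTTTGAT in the other. With T as the sixth letter the element read CTTTGTA in one case, while the other reading was CTTTGTT. No spelling overlaps another on the same strand. Of 35116 such promoters, 11.96% held at least 1 match and 1.21% held 2 or more. A promoter entry was matched for 6 of the 10 genes, with 10 promoters in all, of which 3 held a match. SP5, a zinc-finger repressor that is itself a direct Wnt target, had 3 matches, at 148, 109 and 84 bases before its start. A second promoter of TCF7 had 1 match at 50 bases and a second promoter of TCF7L2 had 1 at 133 bases. The 7 other promoters, of LEF1, RNF43, TCF7, TCF7L1 and TCF7L2, had 0 matches to these letters. The LEF1 promoter searched (chr4:108166302-108166551, minus strand) lies inside the gene as GENCODE 44 places it (chr4:108047545-108168956). Those of TCF7 lie inside that gene too. The bases before the outer starts of LEF1 and TCF7 were not searched. The promoter of SP5 (chr2:170715087-170715336, plus strand) is printed beside the main promoters of TCF7L1 (chr2:85133142-85133391, plus strand) and TCF7L2 (chr10:112949997-112950246, plus strand), the 2 TCF/LEF genes with the highest levels in the tagged run. Each runs 5′ to 3′ and ends at the base before the start, and capitals mark a match, which reads TTCAAAG where the element lies on the other strand. A match is a run of letters and was not measured as a bound site.
SP5: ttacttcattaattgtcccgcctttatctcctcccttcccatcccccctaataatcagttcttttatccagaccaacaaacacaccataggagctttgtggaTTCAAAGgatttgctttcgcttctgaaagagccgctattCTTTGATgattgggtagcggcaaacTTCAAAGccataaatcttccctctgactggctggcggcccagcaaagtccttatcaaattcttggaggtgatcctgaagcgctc
TCF7L1: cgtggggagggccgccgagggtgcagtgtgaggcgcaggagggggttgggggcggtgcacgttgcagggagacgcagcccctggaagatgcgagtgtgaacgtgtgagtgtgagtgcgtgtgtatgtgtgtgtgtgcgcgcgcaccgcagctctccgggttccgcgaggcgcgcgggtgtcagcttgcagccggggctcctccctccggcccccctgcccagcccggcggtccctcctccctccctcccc
TCF7L2: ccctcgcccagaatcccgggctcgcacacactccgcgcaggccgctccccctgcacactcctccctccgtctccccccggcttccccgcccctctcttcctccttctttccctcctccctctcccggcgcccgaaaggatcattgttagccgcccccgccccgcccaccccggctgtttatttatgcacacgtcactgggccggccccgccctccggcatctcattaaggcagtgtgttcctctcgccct

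After filtering, 1009 to 2815 cells remained in each of the 5 tagged conditions, which were pooled in 1 droplet run, and 9107 to 11056 cells in D22, D24 and D26, which were run apart. Summed UMIs (counted molecules) ranged from 58073098 to 130440502 per library. The median cell held 24290.5 to 69455 UMIs in the tagged run and 7180 to 12179 in the later libraries. Levels are given as a gene's UMIs per 1000000 UMIs of its library (CPM) with a 95% Poisson interval. The labels were checked against markers. A list of 6 pluripotency genes summed to 4437 CPM at D0 and 797 CPM at D5_dSMADi, a list of 6 neural progenitor genes rose from 41.6 CPM at D0 to 1404 CPM at D10_dSMADi, and a list of 6 neuron genes stood at 2456 CPM at D22 and 10296 CPM at D24. The labels name the cells of D22 neurons, and the list of 6 genes of dividing progenitors still summed to 1818 CPM there, against 113 CPM at D24 and 36.2 CPM at D26. The barcodes of the 5 tagged conditions were split by tag from 1 run, so the 0 barcodes they shared are no check of the labels. Any pair of D22, D24 and D26 shared 27 to 37 barcodes.

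None of the feedback genes with enough UMIs to compare was 2-fold lower with XAV939 at either day, and SP5, which had too few, was lower at D5. A gene was compared where it had at least 50 UMIs over both libraries, which 8 of the 10 genes did at D5 and at D10, and a difference was called at 2-fold. At D5, 0 of the 8 genes were called lower and 1, LGR5, was called higher, where 1.64% of 15966 genes compared were lower and 1.79% higher. The call of LGR5 at D5 rests on 46 and 19 UMIs and is lost as a mean over cells, where its log2 ratio was 0.96. At D10 the count was again 0 lower and 1 higher, LGR5, where 4.52% of 16077 genes were lower and 2.7% higher. The interval of the ratio lay above 1 for 3 genes, below 1 for 1 and across it for 4 at D5, where it lay above 1 for 34.3% and below for 22.4% of all genes compared. At D10 it lay above for 5, below for 2 and across for 1, where the shares over all genes were 30.3% and 29.1%. The median log2 ratio of the 8 genes was 0.05 at D5 and 0.14 at D10, beside 0.05 and -0.00 over all genes compared. A smaller shift down was present in AXIN2 and ZNRF3 at D10, and TCF7L1 took opposite directions at the 2 days.

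**Figure D1:**
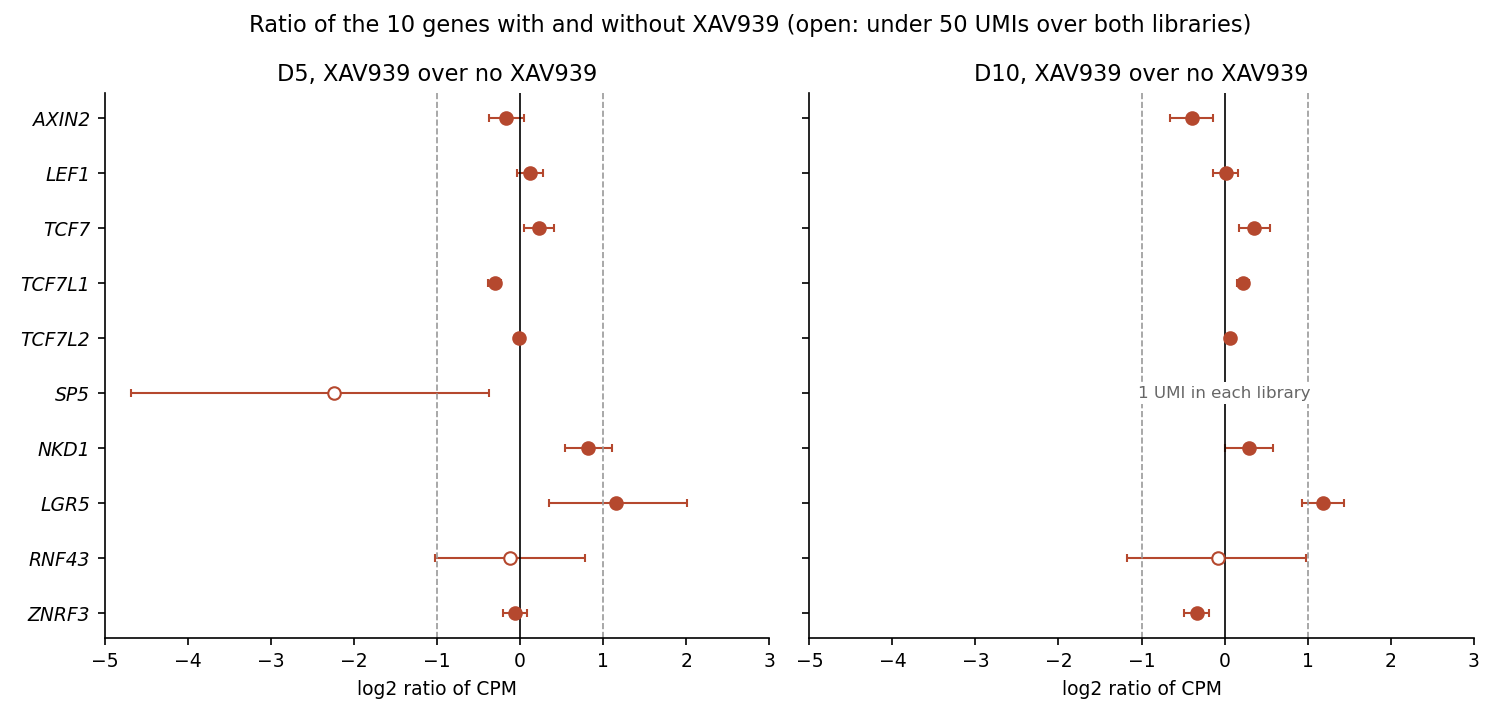
Log2 ratio of CPM with XAV939 over without it (x axis) for each of the 10 genes (y axis) at D5 and D10, with the 95% counting interval (exact binomial on the UMIs of both libraries) as bars and 2-fold as dashed lines. LGR5 lies beyond 2-fold on the right at both days, and the open points of SP5 and RNF43 rest on under 50 UMIs.

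AXIN2 (ENSG00000168646, chr17:65528563-65561648, minus strand) encodes a scaffold of the destruction complex and is the feedback inhibitor most often used as a readout. It stood at 7.07 CPM at D0 and was lower in each of the 4 dSMADi conditions. Its level was 4.63 CPM (interval 4.17 to 5.13) at D5_dSMADi and 4.13 CPM (interval 3.71 to 4.58) at D5_XAV939. The log2 ratio was -0.17 (interval -0.38 to 0.05), so that at this depth a fall at D5 was not told from no change, and a fall past 1.5-fold lay outside the counting interval. At D10 the level was 4.24 CPM (interval 3.80 to 4.72) without and 3.22 CPM (interval 2.78 to 3.72) with XAV939, on 334 and 187 UMIs. These intervals do not overlap, and the log2 ratio was -0.40 (interval -0.66 to -0.13). By cluster, AXIN2 had 3.75 CPM (interval 3.20 to 4.37) and 4.91 CPM (interval 4.19 to 5.71) in the 2 that held most D10_dSMADi cells and 3.23 CPM (interval 2.77 to 3.73) in the main one of D10_XAV939, which overlaps the first of these. After every cell was thinned to 10000 UMIs, 4.05% of D5_dSMADi, 4.01% of D5_XAV939, 4.14% of D10_dSMADi and 2.91% of D10_XAV939 cells held an AXIN2 UMI, against 6.54% of D0 cells. The intervals of the 2 conditions at D10, 3.38 to 5.01% and 2.24 to 3.70%, overlap.

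RNF43 and ZNRF3 are membrane ubiquitin ligases that remove Frizzled receptors from the cell surface and so form a second feedback loop. ZNRF3 (ENSG00000183579, chr22:28883572-29057488, plus strand) had 9.05 CPM at D5_dSMADi against 8.67 CPM at D5_XAV939, which is -0.06 as a log2 ratio (interval -0.21 to 0.09). At D10 it had 12.8 CPM (interval 12.1 to 13.7) without and 10.2 CPM (interval 9.37 to 11.03) with XAV939. Its log2 ratio at D10 was -0.33 (interval -0.48 to -0.19). The D10_dSMADi level was the highest of the 8 libraries, and D10_XAV939 lay with D0 at 10.9 CPM, whose interval it overlaps. The thinned share of cells with a ZNRF3 UMI was 11.7% (interval 10.4 to 13.02%) at D10_dSMADi and 9.04% (interval 7.87 to 10.3%) at D10_XAV939. RNF43 (ENSG00000108375, chr17:58353676-58417595, minus strand) was scarce at D5 and D10, with 23 UMIs in each condition at D5 and 20 and 14 UMIs at D10 without and with XAV939. Its level was 0.961 CPM (interval 0.754 to 1.21) at D0 and between 0.241 and 0.289 CPM in the 4 dSMADi conditions, where the intervals overlap. At D22, in a separate run, it had 104 UMIs, or 0.797 CPM (interval 0.651 to 0.966), which overlaps D0.

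LGR5 (ENSG00000139292, chr12:71439798-71586310, plus strand) is a receptor for R-spondins, secreted proteins that draw RNF43 and ZNRF3 off the membrane and so raise Wnt signaling, and it is a Wnt target in intestinal stem cells. It rested on 17 UMIs at D0, 19 at D5_dSMADi and 46 at D5_XAV939, or 0.224, 0.238 and 0.530 CPM. At D10 it had 206 UMIs without and 344 with XAV939, or 2.62 CPM (interval 2.27 to 3.00) and 5.92 CPM (interval 5.31 to 6.58). The level was thus higher with XAV939 at both days, and by far the larger step was from D5 to D10, which was present in both arms. The log2 ratio of XAV939 over no XAV939 was 1.15 (interval 0.35 to 2.01) at D5 and 1.18 (interval 0.93 to 1.44) at D10. From D5 to D10 the log2 ratio was 3.46 (interval 2.78 to 4.22) without and 3.48 (interval 3.03 to 3.96) with XAV939, and 10.2% and 7.69% of all genes compared rose at least 2-fold in these arms. LGR5 was the single one of the 8 genes compared that did so in either arm.

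The LGR5 signal was spread over cells rather than held by a few. In thinned cells, 2.24% (interval 1.68 to 2.91%) of D10_dSMADi and 5.03% (interval 4.15 to 6.03%) of D10_XAV939 cells held an LGR5 UMI, and unthinned cells gave 7.24% and 12.96% at median depths of 31112.5 and 24290.5 UMIs. The lowest share in the same droplet run, 0.0991% of D0 cells thinned and 0.785% of D5_dSMADi cells unthinned, stands as the background of free RNA. By such thinned shares, 0 of the 8 feedback genes compared had a higher share with XAV939 at D5 with intervals apart and 1, TCF7L1, a lower one, where 14.4% of all genes compared were higher and 8.08% lower. At D10, LGR5 was the 1 gene higher and ZNRF3 the 1 lower, where 13.2% of all genes were higher and 12% lower. No cell at D10 held more than 6 LGR5 UMIs. Cells of the tagged run were clustered without the 10 genes and without the other pathway genes listed below. The 2101 D10_XAV939 cells in the main cluster of that condition, named neural progenitor-like from its markers, had 6.03 CPM of LGR5. The 2 clusters that held most D10_dSMADi cells had 2.03 CPM (interval 1.64 to 2.50) in 1517 cells and 3.31 CPM (interval 2.73 to 3.98) in 874 cells, both below D10_XAV939. The cluster with 874 of these cells was also named neural progenitor-like. The one with 1517 stayed unnamed, with neural progenitor as its best match. A neuron-like cluster of 78 cells, 61 of them from D10_XAV939, held 3 LGR5 UMIs. The list of neuron genes summed to 214 CPM at D10_dSMADi and 398 CPM at D10_XAV939 with 0 of its 6 genes at 0, and without the neuron-like cells the LGR5 log2 ratio was 1.20 against 1.18 with them. Other marker lists differed between the arms as well. At D10, the list of 6 genes of non-dividing progenitors summed to 2561 CPM without and 5326 CPM with XAV939, mostly DLK1 at 1832 and 4281 CPM, with 0 of its genes at 0. At D5, the list of 7 glutamatergic genes summed to 60.2 CPM with 1 gene at 0 without XAV939 and to 15.7 CPM with 0 at 0 with it. The list of 6 placode or surface ectoderm genes summed to 267 CPM without and 182 CPM with XAV939 at D10, with 0 genes at 0. The part of these shifts in the ratios of the feedback genes was not tested.

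NKD1 (ENSG00000140807, chr16:50548396-50649249, plus strand) binds Dishevelled and restrains Wnt signaling. It had 163 UMIs at D5_dSMADi and 313 at D5_XAV939, or 2.05 CPM (interval 1.74 to 2.38) and 3.61 CPM (interval 3.22 to 4.03), so that this inhibitor was higher with the drug. Its log2 ratio was 0.82 (interval 0.54 to 1.10) at D5 and 0.29 (interval 0.01 to 0.58) at D10, where it had 2.74 and 3.36 CPM. At 1.5-fold NKD1 and LGR5 were the 2 genes called higher at D5, where 6.85% of all genes compared were, and 0 were called lower, where 4.99% were. SP5 (ENSG00000204335, chr2:170715337-170718078, plus strand) was close to the limit of detection. It had 13 UMIs at D5_dSMADi, 3 at D5_XAV939, and 1 each at D0, D10_dSMADi and D10_XAV939. The ratio of D5_XAV939 to D5_dSMADi was 0.212, with a log2 interval of -4.69 to -0.37. It was the lowest ratio among the 10 genes, it rests on 16 UMIs, and 3 thinned D5_dSMADi cells and 2 thinned D5_XAV939 cells held an SP5 UMI, so that it was left out of the counts.

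Among the TCF/LEF factors, LEF1 and TCF7L2 were at nearly the same level with and without XAV939. LEF1 (ENSG00000138795, chr4:108047545-108168956, minus strand), an activator that is a Wnt target in its own right, had 7.74 CPM at D5_dSMADi and 8.42 CPM at D5_XAV939, and 10.03 and 10.1 CPM at D10. As log2 ratios these were 0.12 (interval -0.04 to 0.28) at D5 and 0.01 (interval -0.15 to 0.17) at D10. TCF7L2 (ENSG00000148737, chr10:112950247-113167678, plus strand), which can activate or repress, had 89.2 CPM at D5_XAV939, within the interval of 87.9 to 92.1 CPM at D5_dSMADi, and 91.3 and 95.2 CPM at D10, with log2 ratios of -0.01 (interval -0.06 to 0.03) and 0.06 (interval 0.01 to 0.11). TCF7L1 (ENSG00000152284, chr2:85133392-85310387, plus strand), known mainly as a repressor that holds pluripotency and Wnt targets in check, had 34.9 CPM at D5_dSMADi and 28.2 CPM at D5_XAV939, and 43.3 and 50.4 CPM at D10. Its log2 ratio was -0.31 (interval -0.39 to -0.23) at D5 and 0.22 (interval 0.15 to 0.29) at D10. In the clusters, TCF7L1 stood at 33.6 and 36.1 CPM in the 2 that held most D5_dSMADi cells and at 26.5 and 29.8 CPM in the 2 that held most D5_XAV939 cells, so the lower level at D5 was present in both of the latter.

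TCF7 (ENSG00000081059, chr5:134114681-134151865, plus strand) had 5.35 and 6.26 CPM at D5 and 6.11 and 7.83 CPM at D10, with log2 ratios of 0.23 (interval 0.04 to 0.41) and 0.36 (interval 0.17 to 0.55). These values need care, because exons of TCF7 overlap those of SKP1 on the other strand, and whether the counting used strand is not given in the sources used here. SKP1, a ubiquitin ligase subunit that was named after its values were seen, had 387 to 453 CPM in the tagged run and 840 to 925 CPM in D22, D24 and D26. TCF7 amounted to 1.15 to 1.78 UMIs per 100 UMIs of SKP1 over the 8 libraries. The level of TCF7 was higher in the 3 later libraries, at 14.1 to 16.3 CPM, than in the tagged run, at 5.23 to 7.83 CPM, and SKP1 was higher there too. What part of the TCF7 UMIs came from SKP1 was not tested. Exons of AXIN2 and RNF43 overlap a longer gene on the same strand, and exons of LEF1, TCF7L2, NKD1, LGR5 and RNF43 overlap a gene on the other strand. How far those counts are shared was not measured.

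The other genes of the pathway were read from 5 lists with 52 genes in all, of which 42 were compared at D5 and 41 at D10. Of these, 3 were called lower and 0 higher at D5, and 1 lower and 5 higher at D10. Over all genes compared, 1.64% were lower and 1.79% higher at D5, and 4.52% and 2.7% at D10. The medians of the listed genes were 0.05 and 0.09 on the log2 scale, beside 0.05 and -0.00 over all genes. The destruction complex and tankyrase list had 0 of 10 genes past 2-fold at D5 and 1, APC2, at D10, where this neural relative of APC had 0.978 CPM without and 2.38 CPM with XAV939. The drug targets themselves were within 1.5-fold. TNKS had log2 ratios of 0.07 at D5 and -0.01 at D10, and TNKS2 had 0.14 and 0.31 (interval 0.23 to 0.39). Among 11 nuclear cofactors compared, 0 passed 2-fold at either day.

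Large shifts were present among the R-spondins and their receptors. RSPO2 had 1834 UMIs at D5_dSMADi and 130 at D5_XAV939, or 23.01 and 1.499 CPM. Its log2 ratio was -3.94 (interval -4.21 to -3.68). By D10 it was at 0.533 and 0.430 CPM, with overlapping intervals. RSPO3 instead was higher with XAV939 at D10, at 7.28 against 1.33 CPM, a log2 ratio of 2.45 (interval 2.14 to 2.77). LGR4, a receptor of the same family as LGR5, was at 87.7 and 86.9 CPM at D5 and at 16.2 and 44.1 CPM at D10, so that it fell from D5 to D10 in both arms and by less with XAV939. Its log2 ratio at D10 was 1.44 (interval 1.35 to 1.54). LGR5 and LGR4 were thus both higher with XAV939 at D10, and at D5 the log2 ratio of LGR4 was -0.01 (interval -0.06 to 0.03).

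Of the list of other known targets, 9 were compared at D5 and 8 at D10. MSX2, a homeobox target of BMP and Wnt signals, had 83 UMIs at D5_dSMADi and 3 at D5_XAV939, a ratio of 0.0332 with a log2 interval of -7.22 to -3.31. BMP4, a dorsalizing ligand, had 197 and 56 UMIs at D5 and 63 and 5 at D10, with log2 ratios of -1.94 (interval -2.39 to -1.502) and -3.22 (interval -4.89 to -1.92). ID2 and MSX1 were higher with XAV939 at D10, with log2 ratios of 1.43 (interval 1.33 to 1.52) and 1.08 (interval 0.64 to 1.54). MSX1 and RSPO2 also stand in a list of 6 roof plate or hem genes, which summed to 38.3 CPM at D5_dSMADi with 1 gene at 0 and to 19.2 CPM at D5_XAV939 with 2 at 0. RSPO2 fell by more than the sum did, and the 5 other genes together were slightly higher with XAV939, at 15.3 CPM without and 17.7 CPM with XAV939. Among these 5, LMX1A went from 145 to 27 UMIs and MSX1 from 84 to 58, while BMP7 went from 991 to 1446. The 2 clusters that held most D5_dSMADi cells, with 1590 and 789 of them, stayed unnamed. Their best match was roof plate or hem, with 2 of its 6 genes detected and RSPO2 among their leading genes. The 2 that held most D5_XAV939 cells were also unnamed, with pluripotent as best match. The part of cell identity in the differences of RSPO2, MSX2 and BMP4 was not tested.

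**Figure D2:**
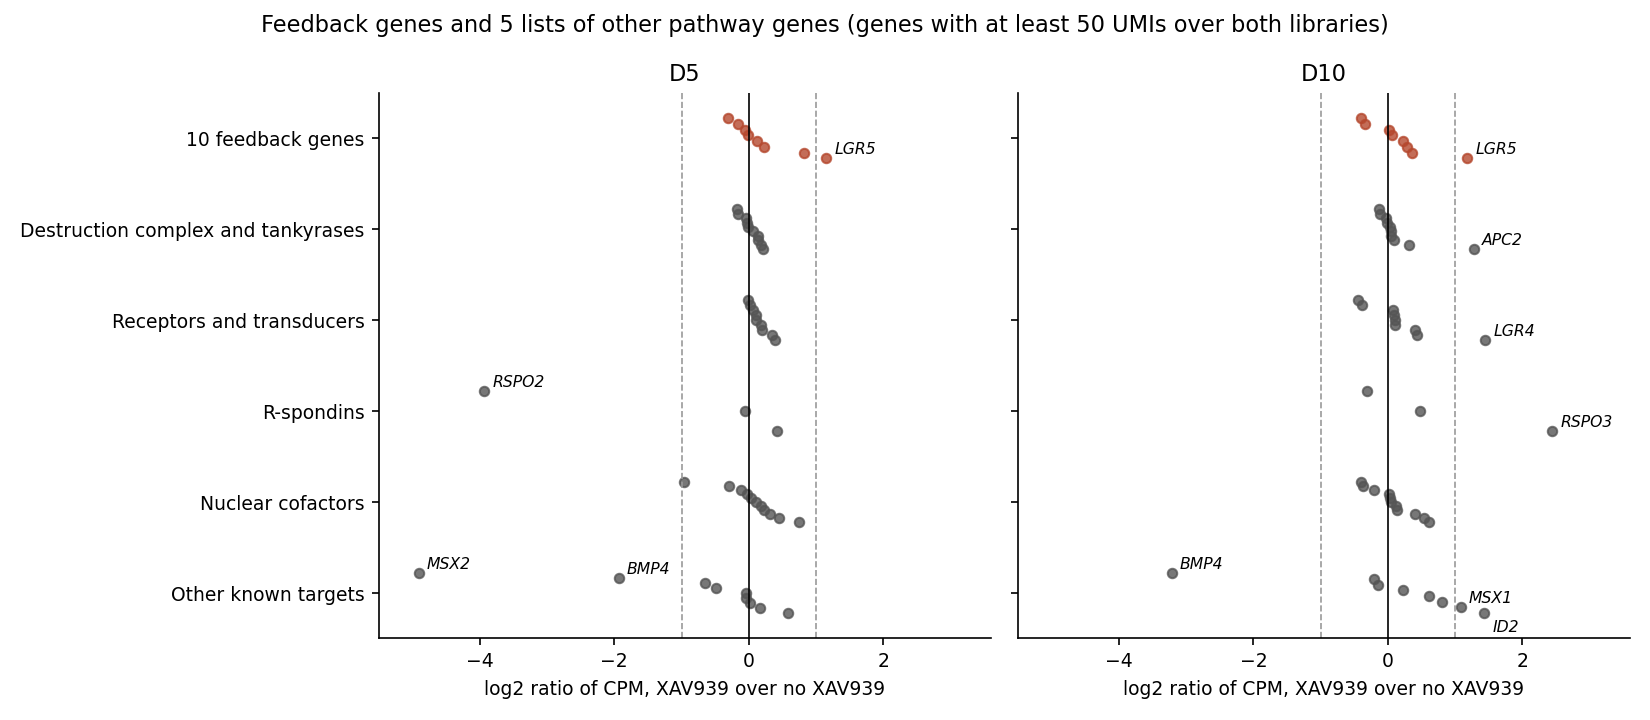
Log2 ratio of CPM with XAV939 over without it (x axis) at D5 and D10 for the feedback genes and for the 5 lists of other pathway genes (y axis), 1 point per gene with at least 50 UMIs over both libraries, names given past 2-fold (dashed lines). Of the 8 feedback genes compared, LGR5 lies past 2-fold at both days and NKD1 past 1.5-fold at D5, while RSPO2, MSX2 and BMP4 lie far to the left at D5 and RSPO3 far to the right at D10.

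Over time within the tagged run, the shares of feedback genes called at the first step were near those of all genes. From D0 to D5_dSMADi, 2 of 8 genes compared were called lower and 1 higher, beside 22.4% and 12% of all genes compared. TCF7L1 fell from 135 CPM (interval 133 to 138) to 34.9 CPM (interval 33.6 to 36.2), a log2 ratio of -1.95, and RNF43 fell with a log2 ratio of -1.74 (interval -2.48 to -1.04). LEF1 rose from 0.751 CPM to 7.74 CPM (log2 ratio 3.37, interval 2.97 to 3.78), and TCF7L2 was higher within 2-fold, by a log2 ratio of 0.36 from 70.1 CPM at D0. The share of thinned cells with a LEF1 UMI was 0.496% at D0, the lowest of the run, and 7.03% at D5_dSMADi. From D5_dSMADi to D10_dSMADi, LGR5 was the 1 gene of 8 called higher and 0 were lower, where 2.86% of all genes compared were lower. With XAV939 the counts over this step were the same, 1 higher and 0 lower, where 3.6% of all genes compared were lower.

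**Figure D3:**
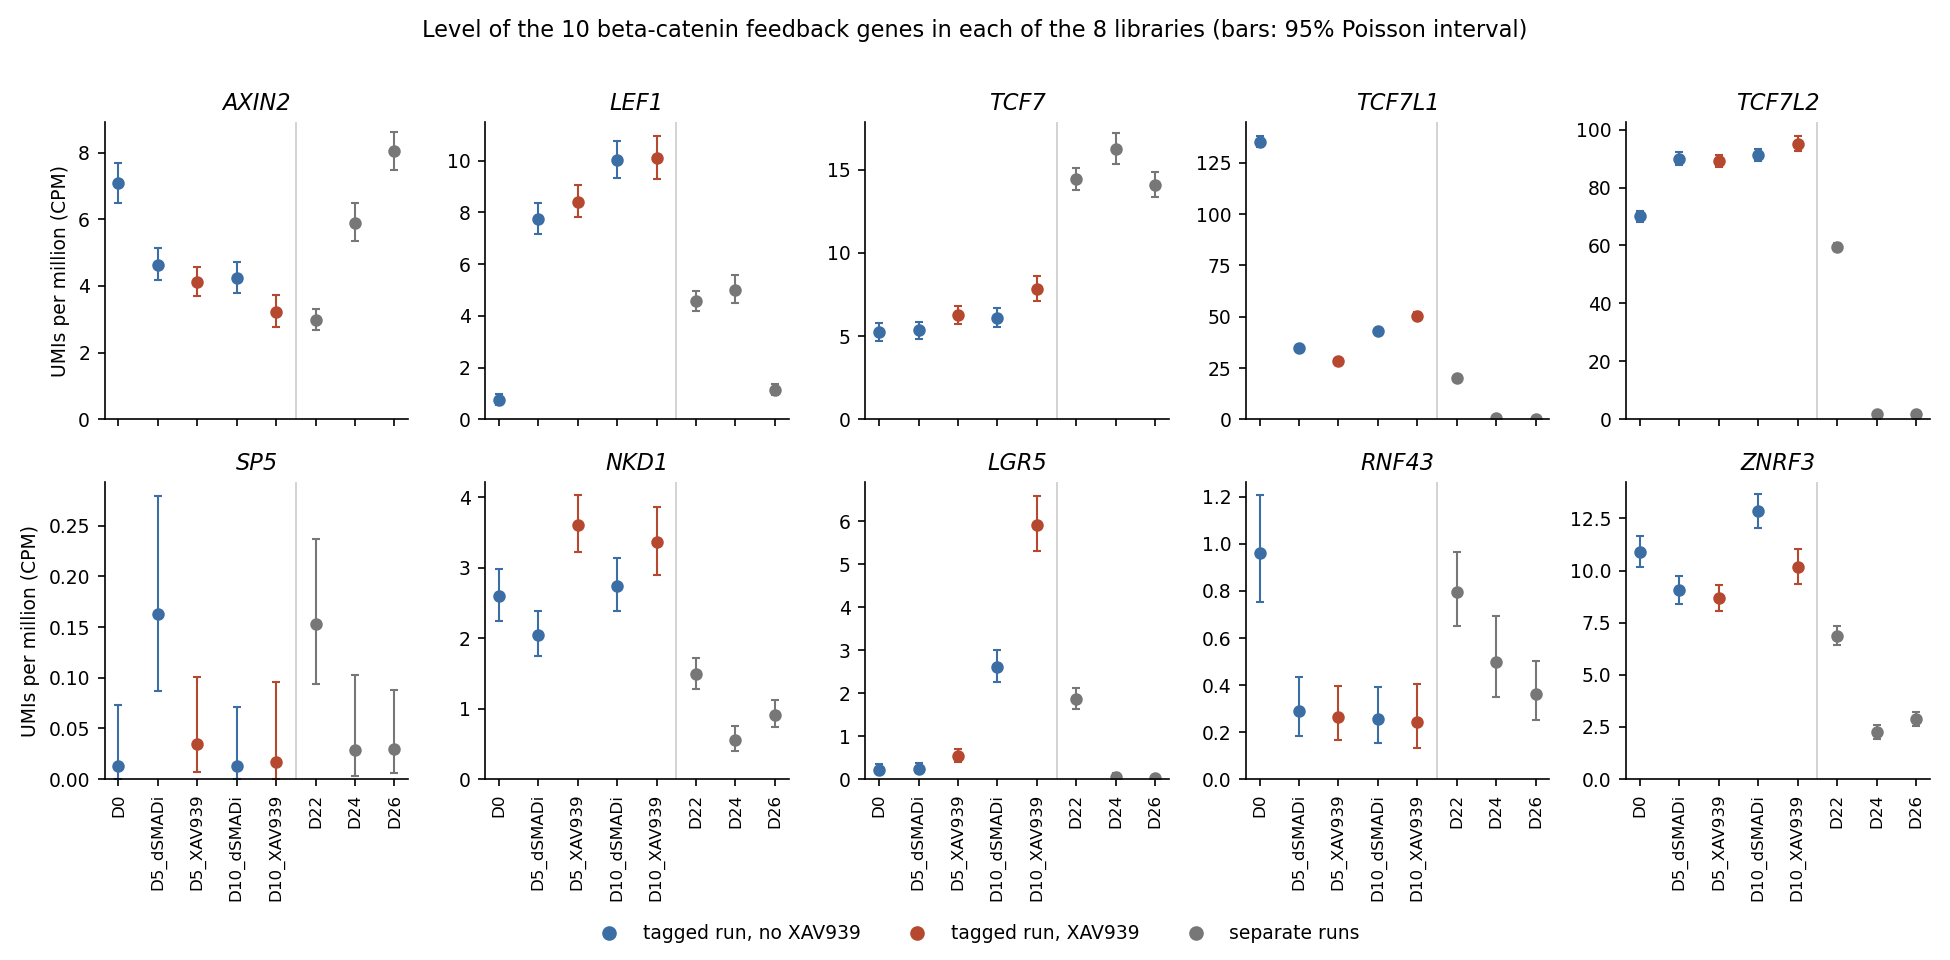
Level of each of the 10 genes in CPM (y axis, from 0, scaled per gene) in the 8 libraries (x axis), with the 95% Poisson interval as bars. TCF7L1 is highest at D0 and LEF1 at D10, and TCF7L1, TCF7L2 and LGR5 are close to 0 at D24 and D26, where AXIN2 is at 5.89 and 8.03 CPM.

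The order of the levels over the 8 libraries differed between the genes. AXIN2 was highest at D26 (8.03 CPM) and D0 (7.07 CPM), which overlap, then at D24 (5.89 CPM), which stood clear of both sides, and the 5 libraries from D5_dSMADi to D22, at 4.63 to 2.98 CPM, each overlapped the next. LEF1 ran from both D10 libraries through both D5 libraries and the overlapping pair D24 and D22, at 5.02 and 4.56 CPM, down to D26 and D0, at 1.13 and 0.751 CPM, which also overlap. ZNRF3 was highest at D10_dSMADi and lowest at D24, at 2.24 CPM, which overlaps D26. NKD1 was highest at D5_XAV939, which overlaps D10_XAV939, and lowest at D24, at 0.556 CPM, which overlaps D26. The tagged run and the later libraries were made with different Cell Ranger versions and gene annotations, so these orders set levels of separate runs side by side. In particular, the longer gene that shares exons with AXIN2 was listed in D22, D24 and D26 and was not listed in the tagged run.

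From D22 to D24, as the list of dividing progenitor genes went from 1818 to 113 CPM, 5 of 9 feedback genes compared were called lower and 0 higher, beside 17.1% and 12.8% of all genes compared. The 5 included TCF7L1 and TCF7L2, which are nuclear effectors, so the count is not one of feedback targets alone. TCF7L1 went from 2631 to 35 UMIs, a log2 ratio of -5.34 (interval -5.86 to -4.86). TCF7L2 went from 7748 to 132 UMIs, a log2 ratio of -4.98 (interval -5.24 to -4.73), and LGR5 went from 244 to 4 UMIs. LGR5 was thus near the limit of detection 2 days later, while TCF7L1 and TCF7L2 were low but detected. NKD1 and ZNRF3 fell less, with log2 ratios of -1.42 and -1.62. AXIN2 moved the other way, from 2.98 to 5.89 CPM, a log2 ratio of 0.98 (interval 0.78 to 1.18), just short of 2-fold.

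From D24 to D26, LEF1 and TCF7L1 were the 2 of 8 genes called lower, beside 4.88% of all genes compared, and 0 were called higher, beside 9.91%. LEF1 fell from 352 to 112 UMIs, a log2 ratio of -2.16 (interval -2.48 to -1.84). AXIN2 was higher again, within 2-fold, by a log2 ratio of 0.45 (interval 0.28 to 0.62). TCF7L2 stood at 1.88 CPM at both days, and 23 of its 187 UMIs at D26 came from 1 cell.

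The make-up of TCF/LEF transcripts turned over in the course of the differentiation. Each UMI stands for 1 captured 3′ end, so these shares were not scaled by gene length. TCF7L1 made up 64.0% of the UMIs of the 4 genes at D0 and 25.3% at D5_dSMADi, while TCF7L2 went from 33.2% to 65.2%. With XAV939, TCF7L1 made up 21.4% at D5 and 30.8% at D10, against 28.7% at D10_dSMADi. At D24 and D26 TCF7 made up 68.7% and 81.6%, with the doubt over SKP1 given above. Without TCF7, LEF1 made up 67.8% (interval 63.6 to 71.8%) of the other 3 genes at D24, on 519 UMIs, and TCF7L2 made up 59.4% (interval 53.7 to 64.8%) at D26, on 315 UMIs.

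**Figure D4:**
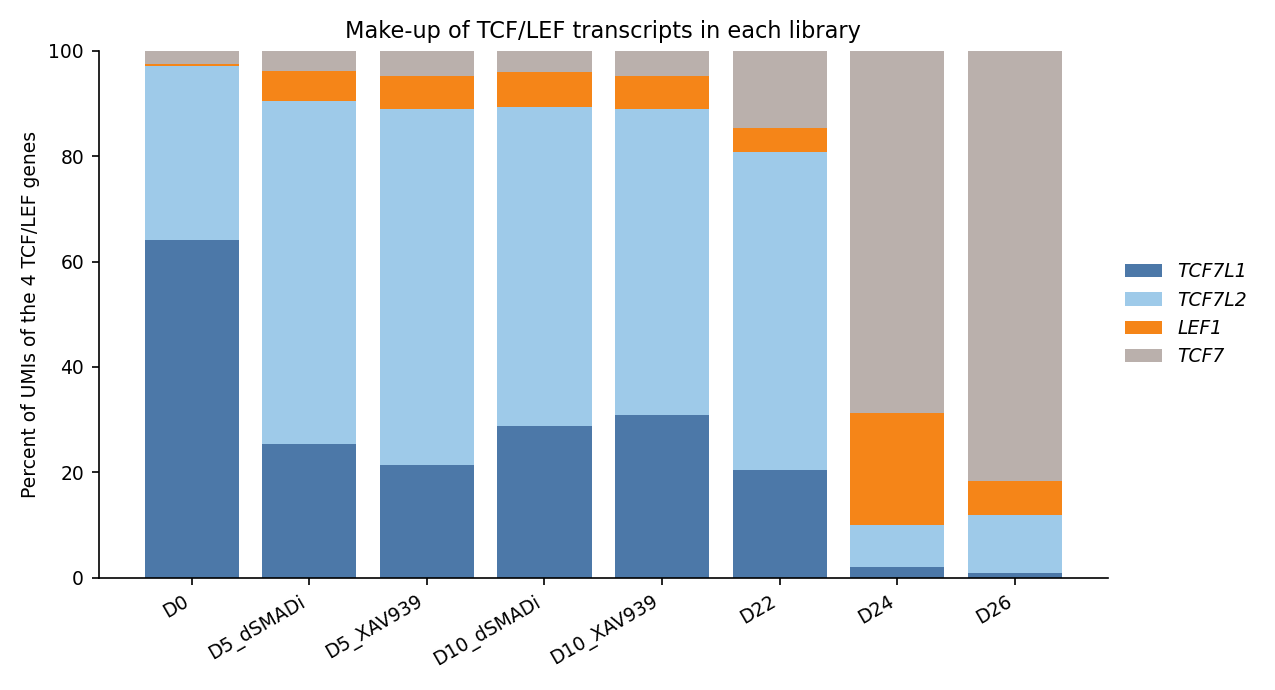
Percent of the summed UMIs of TCF7L1, TCF7L2, LEF1 and TCF7 (y axis) taken by each gene in the 8 libraries (x axis). TCF7L1 leads at D0 with 64.0%, TCF7L2 leads from D5_dSMADi to D22, and TCF7 leads at D24 and D26, where the 4 genes together had 1659 and 1715 UMIs.

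Cells of D22, D24 and D26 were clustered together without the 10 genes and named from markers of the cell types of this protocol, and the levels in these classes are a description. The 1399 dividing progenitors (PNP-like) were nearly all from D22, which gave 1393 of them, while the 17478 glutamatergic cells (Glut-like) came mostly from D24 and D26, with 940 from D22. Classes were therefore compared within D22, a choice made after the values were seen. Of the 940 Glut-like cells of D22, 786 lay in 1 cluster, led by EOMES, RSPO3 and KLHL35. All 7 glutamatergic genes of the marker list were detected there, and 0 of them were among its 10 leading genes. At D22, TCF7L2 had 92.5 CPM in PNP-like, 43.7 in non-dividing progenitors (NNP-like, 3441 cells), 72.2 in IRX-like (637 cells) and 2.43 in Glut-like cells. LGR5 had 104 UMIs in PNP-like cells (3.94 CPM), 14 in NNP-like, 12 in IRX-like and 1 in Glut-like cells. Both genes were thus highest in the dividing progenitors among these 4 classes. The 2887 unnamed cells of D22 had 113 LGR5 UMIs, at 2.97 CPM (interval 2.45 to 3.57), which overlaps the PNP-like interval of 3.22 to 4.77 CPM. TCF7L2 in the unnamed cells was at 69.5 CPM. Of 7 feedback genes compared within D22, 4 were at least 2-fold higher in PNP-like than in Glut-like cells and 0 were at least 2-fold lower, where 14.5% of 12671 genes were higher and 17% lower. The 4 were TCF7L1, TCF7L2, LGR5 and ZNRF3, with log2 ratios of 4.96, 5.25, 5.40 (interval 2.89 to 10.71) and 1.01 (interval 0.51 to 1.54), and LEF1 was just short at 0.97. Pooled over the 3 days, 6 of 9 genes were higher and 1, AXIN2, was lower, where 15.2% of 15819 genes were higher and 24% lower, and that comparison cannot be told apart from one between libraries. GABAergic cells with GnRH transcripts (GnRH-GABA-like, 2545 cells) were not a stable class. Their TCF7L2 level, pooled over days, was 3.57 CPM, 21.0 CPM at double the clustering resolution and 42.5 CPM with doublets removed, and their LGR5 UMIs numbered 0, 17 and 89. LGR5 in NNP-like cells also moved, from 0.327 to 1.16 and 0.602 CPM.

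TCF7L1, LEF1 and AXIN2 had other orders among the classes. At D22, TCF7L1 had 34.8 CPM in PNP-like, 8.82 in NNP-like, 53.9 in IRX-like and 1.12 in Glut-like cells. LEF1 had 8.06 CPM (interval 7.01 to 9.22) in PNP-like, 1.22 (interval 0.908 to 1.59) in NNP-like and 4.11 (interval 2.99 to 5.52) in Glut-like cells, so its level was lower in NNP-like cells than in either. Pooled over days, LEF1 in NNP-like cells moved from 1.21 to 1.97 CPM at double the clustering resolution. Its level in IRX-like cells of D22, 2.12 CPM (interval 1.31 to 3.24), overlaps that in NNP-like cells, and the pooled order of these 2 classes turned under both alternatives. AXIN2 had 3.63 CPM in PNP-like, 1.38 (interval 1.05 to 1.78) in NNP-like and 5.80 (interval 4.44 to 7.43) in Glut-like cells, which overlaps IRX-like cells at 4.34 (interval 3.14 to 5.85) and GnRH-GABA-like cells at 4.62 (interval 2.39 to 8.07). At D26, AXIN2 was at 9.06 CPM (interval 8.40 to 9.76) in Glut-like and 4.19 CPM (interval 3.30 to 5.25) in GnRH-GABA-like cells as first clustered, which do not overlap. LEF1 was at 5.10 CPM in Glut-like cells of D24 and 1.37 CPM in those of D26. Different clusters held most of the class at these days, 1 with 7557 D24 and 52 D26 cells and the other with 209 and 8654. Within the first LEF1 had 298 UMIs at D24 and 4 at D26, all in 1 cell, and within the second it had 1 and 101 UMIs. Each cluster held too few cells of 1 of the days for LEF1 to be compared between days inside it. An unnamed cluster of 223 cells, led by SMIM32, CDKN1A and TRH, had 25.3 CPM of LEF1 (interval 19.0 to 33.1) on 54 UMIs, the highest level among the 15 clusters.

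**Figure D5:**
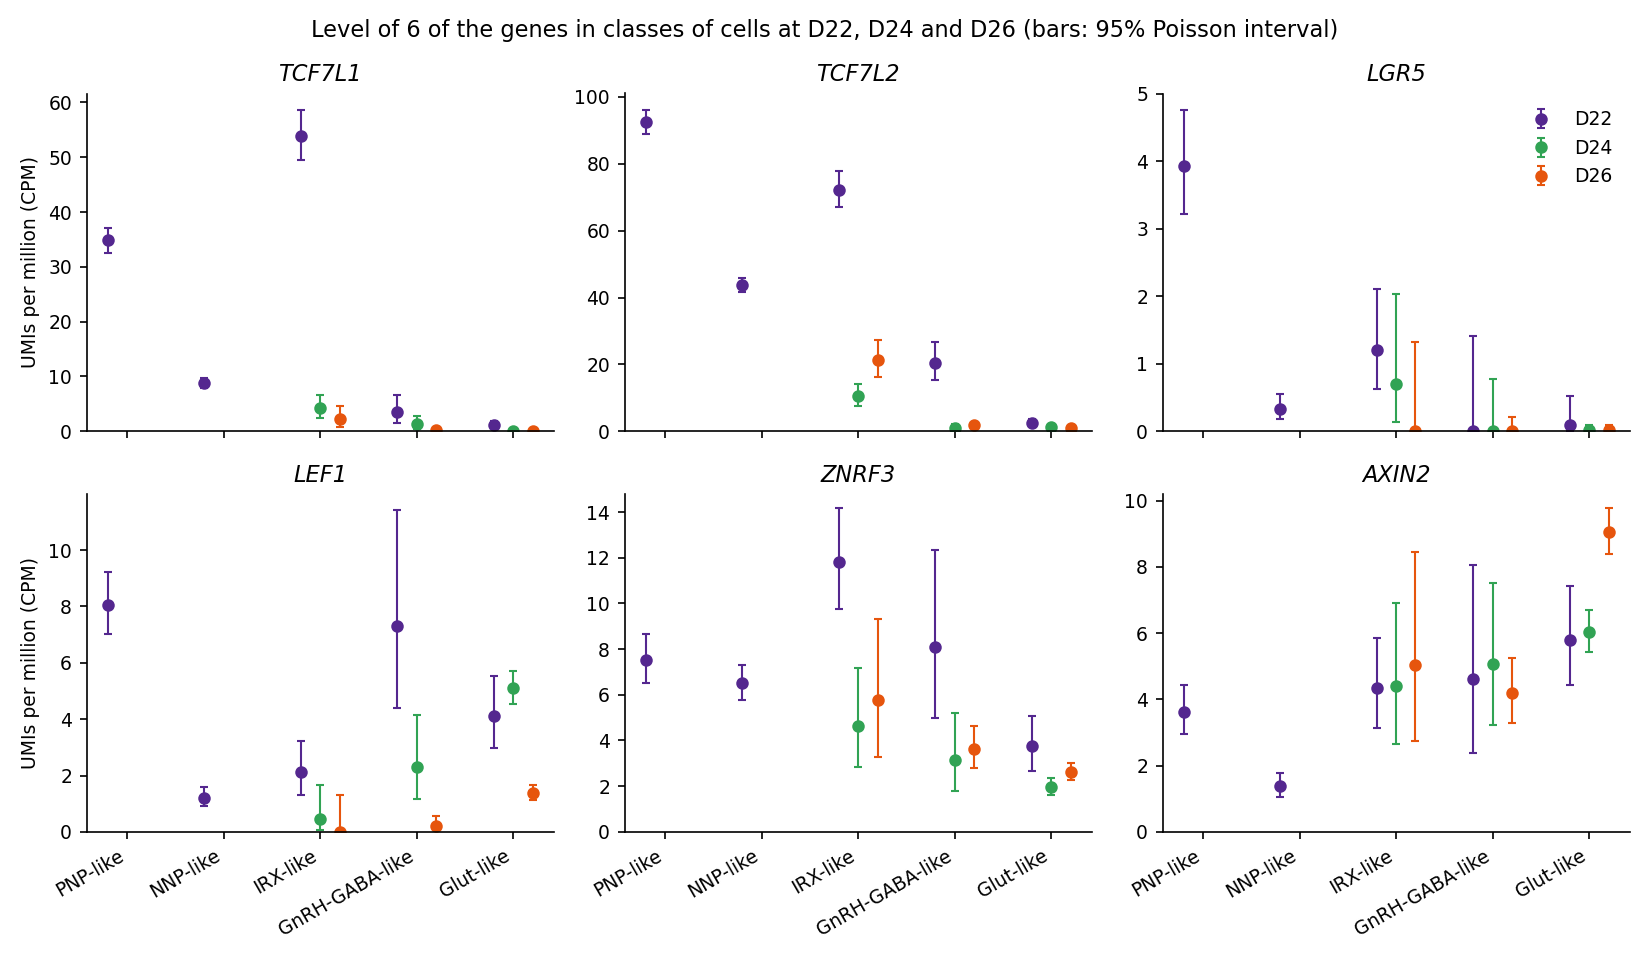
Level in CPM (y axis, from 0, scaled per gene) of 6 of the genes in 5 classes of cells (x axis) at D22, D24 and D26, with the 95% Poisson interval as bars, for classes with at least 50 cells in a library. Among the classes drawn, which leave out unnamed cells, TCF7L2 and LGR5 are highest in PNP-like cells of D22, and AXIN2 is highest in Glut-like cells of D26.

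The genes whose levels ran most like those of AXIN2 and LEF1 over the 8 libraries were sought by Pearson's r of log2(CPM + 1), over the 8390 genes that reached 20 CPM in any library. The points share the 2 groups of runs, so r is a description. The 5 nearest to AXIN2 were AC245297.3, OLFM2, RAB3GAP2, CLMP and RCAN3, with r from 0.958 to 0.986. OLFM2 stood at 34.4 CPM at D0, 6.49 CPM at D10_XAV939 and 66.2 CPM at D26. The 5 nearest to LEF1 were PDLIM7, DYNC2LI1, AFDN, SREK1IP1 and PIGF, with r from 0.938 to 0.982. PDLIM7 stood at 43.5 CPM at D0, 195 CPM at D10_XAV939 and 51.6 CPM at D26.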

How the data were processed

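The authors aligned 10x Genomics 3′ reads to GRCh38 with Cell Ranger (3.1 per the labels; per the file headers, 6.1.2 in the tagged run and 3.1.0 in the later libraries) and deposited UMI counts per gene and called barcode, without normalization. The tag counts deposited with each tagged condition had its own labelled tag highest in every barcode.

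Cells were kept by the limits that the study lists. These kept 97.5% of deposited barcodes at D5_dSMADi, 96.4% at D5_XAV939, 87.0% at D10_dSMADi and 82.2% at D10_XAV939. The paper gives 2480, 2919, 2778 and 2638 cells analyzed in these conditions, which are the numbers of deposited barcodes, so the cells used here are fewer. At D0 the complexity limit of 0.85 left 1 barcode and was not used, and barcodes needed 30000 UMIs and 5000 genes. UMIs were summed per library (58073098 to 130440502, which sets the precision) and scaled to CPM with exact 95% Poisson intervals. Log2 ratios carry an exact binomial interval on the UMIs of both libraries, and shares of cells the Clopper-Pearson interval after thinning to 10000 UMIs (1500 for D22 to D26). Intervals cover counting error only. No test was possible with 1 library per condition. Genes needed 50 UMIs over both libraries, and called means 2-fold. The ratio was tested on simulated data.

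Clusters were found with leidenalg 0.10.2 (2000 variable genes, 30 components, 20 neighbours, resolution 0.3 for D0 to D10 and 0.5 for D22 to D26), without correction between libraries. They were named from marker lists. Of 9 early and 15 late clusters, 5 and 5 stayed unnamed, among them those that held most D5 cells and the 1 that held most D10_dSMADi cells. The limits that left 2 of the late ones unnamed were set after their values were seen. Doublets, scored with Scrublet's formula in separate code, marked 1.57 to 7.02% of cells at a score of 0.25 and stayed in. The 10 genes and all lists were chosen with earlier results of these data known. Text names the 10 genes, the tankyrases, pathway genes past 2-fold at D5 or D10, and the 5 genes nearest to AXIN2 and LEF1. LMX1A, BMP7, DLK1, SKP1 and the leading genes of clusters were named after their values were seen. Promoters came from RefSeq on GRCh38.p14, positions from GENCODE 44. Of the marker lists, 1 is not reported here.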

Additional observations from a re-analysis of the deposited data

Results flagged for a closer look

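TCF7L1 took opposite directions at the 2 days. Its log2 ratio of XAV939 over no XAV939 was -0.31 (interval -0.39 to -0.23) at D5 and 0.22 (interval 0.15 to 0.29) at D10, with counting intervals on either side of 0. With 1 library per condition the difference between the days was not tested. Neither ratio reached 1.5-fold, and over the alternatives tried they lay between -0.36 and -0.30 at D5 and between 0.18 and 0.26 at D10.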

How the results depend on the processing

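No paired analysis was possible because each condition is 1 library. No alternative reversed a called value. Of the 19 log2 ratios of single genes, 17 stayed within their counting interval under every alternative, and TCF7L2 left its own once at each day (-0.06 at D5 with size factors, 0.13 at D10 with no filter on cells). LEF1 and RNF43 at D10, whose intervals hold 0, took both signs over the alternatives, which made 2 such ratios. Other scalings moved the median of all genes by at most 0.05, which was a shift of -0.05 at D5 with size factors. At D5, LGR5 fell just short of 2-fold as a mean over cells (log2 0.96), which made 0 members higher, and with a minimum of 500 UMIs it was not compared, again 0. With no filter on low genes SP5 counted as lower, which made 1. At 1.5-fold, 2 members were higher at D5. All genes lower and higher at D5 numbered 89 and 87 with 500 UMIs, 1212 and 1257 without the filter on low genes, and 797 and 1093 at 1.5-fold, where the main counts were 262 and 286. At D10 they numbered 191 and 157, 2355 and 1204, and 1645 and 1090, where the main counts were 727 and 434. Pathway genes at 1.5-fold were 5 lower and 2 higher at D5 and 1 lower and 8 higher at D10. Shares of cells with non-overlapping intervals depended on depth. Without thinning, 1 gene was higher and 2 lower with XAV939 at D5, and 1 was higher and 4 lower at D10, where 12%, 20.9%, 5.05% and 49.5% of all genes were. Thinned to 1500 UMIs, 0 were higher or lower at either day, where thinning to 10000 gave 1 lower at D5 and 1 higher and 1 lower at D10. At 1500 UMIs few genes of any kind had intervals apart. Of all genes, 4.16% were higher and 2.44% lower at D5, and 4.66% and 3.78% at D10. Comparing PNP-like with Glut-like cells within D22 was also chosen after seeing the data, and it made 0 genes lower in place of 1. Leaving TCF7 out of the TCF/LEF make-up was chosen after seeing the data, and it moved the share of LEF1 at D24 from 21.2% to 67.8%. Depth limits SP5 and RNF43 most, with at most 46 UMIs over both libraries of a pair at D5 and D10.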
